A study of Mus musculus with 3 samples.

Results

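The genes examined were 10 members of the ATF4 amino acid and stress response program in ST2, an established stromal line from mouse bone marrow with osteoblast and adipocyte potential. They were chosen by name (Atf4, Atf3, Ddit3, Trib3, Chac1, Asns, Psat1, Phgdh, Sesn2 and Ppp1r15a), and each was found on 1 row of the 51826 rows of the deposited expression table. Messenger RNA was profiled in 3 libraries, 1 per group. The control cells carried the empty vector with a control siRNA, the NELL2 overexpression cells the NELL2 construct with the control siRNA, and the Fn1 knockdown cells the empty vector with siRNA against Fn1, so all cells had been given a plasmid, 30 nM siRNA and a lipid reagent. ST2 cells are 1 line, and the labels name DMEM as their medium whereas the methods of the study name α-MEM; these media differ in the amino acids they supply. The time between transfection and RNA isolation is not given in the sources used here. With 1 library per group, no difference has a replicate check and no test was made.

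ATF4 is a transcription factor of the integrated stress response. Kinases that sense amino acid shortage, unfolded protein in the endoplasmic reticulum, double-stranded RNA or heme deficiency phosphorylate the initiation factor eIF2α, which lowers general translation but lets ribosomes reach the main reading frame of Atf4 mRNA, so that ATF4 protein can rise without a change of its mRNA. ATF4 then binds C/EBP-ATF response elements in genes for amino acid synthesis, transport and tRNA charging, and in genes that end or reinforce the response. In bone, ATF4 is known as a factor that osteoblasts need for amino acid import, collagen synthesis and late differentiation.

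The labels were checked first on the targeted genes. Nell2 was at 0.640, 326 and 1.06 FPKM (fragments per kilobase of transcript, scaled to the mapped fragments of the library) and Fn1 at 2802, 2489 and 137 FPKM in the libraries, given here and in what follows in the order control, NELL2 overexpression, Fn1 knockdown. All 6 stromal markers examined (Col1a1, Col1a2, Cxcl12, Vcam1, Pdgfrb and Thy1) reached 1 FPKM in every library, with sums of 2432 to 2831 FPKM. Of 6 markers of other cell types, Cd68 was at 4.08, 3.54 and 1.57 FPKM, and Ptprc, Epcam, Pecam1, Adipoq and Hba-a1 stayed under 1 FPKM, with Epcam listed at 0 throughout. Depth, estimated from the size of low values, was about 23000000 to 24200000 fragments per library.

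All 10 genes were at 1 FPKM or more in every library, and their levels covered a wide range. Atf4 and Phgdh were the most abundant, at 109.8 and 108 FPKM in the control, above 95.6% and 95.5% of the genes that reached 1 FPKM there. Psat1, Ddit3 and Asns formed a middle group at 62.9, 57.7 and 55.1 FPKM. Sesn2 followed at 30.1 FPKM, then Ppp1r15a at 19.2, Chac1 at 18.4 and Trib3 at 12.4 FPKM. Atf3 was the lowest, at 2.81 FPKM and above 17.4% of expressed genes. This order was nearly the same in the other libraries. Atf4, Phgdh, Sesn2 and Atf3 kept their places in all 3, and the ranges over the libraries overlapped between Ddit3 and Psat1, Psat1 and Asns, Chac1 and Ppp1r15a, and Ppp1r15a and Trib3, so these neighbours were not separated.

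**Figure D1:**
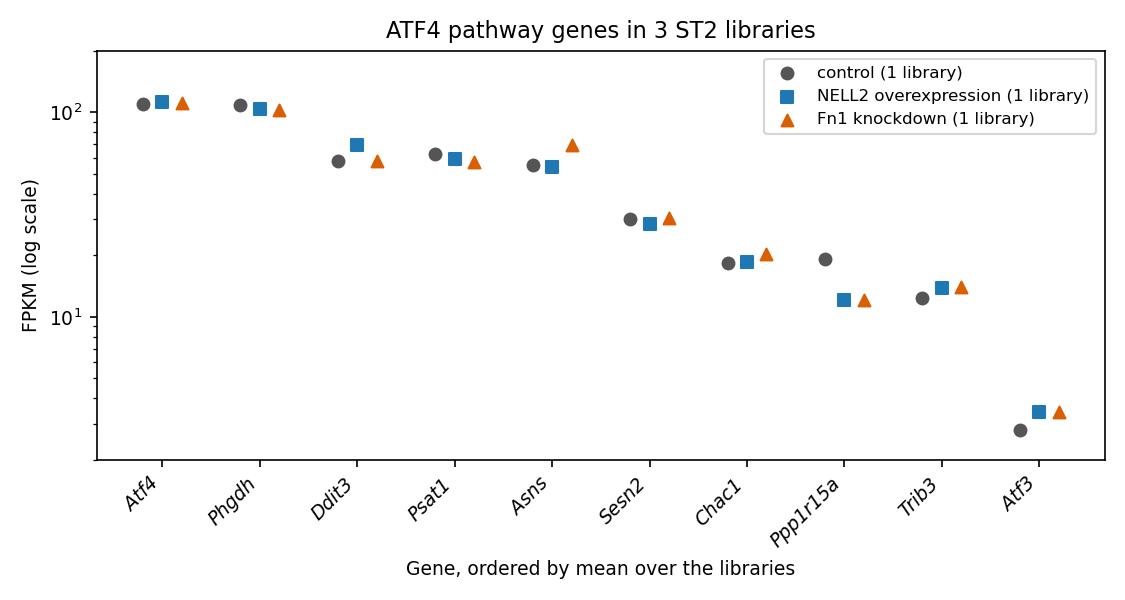
FPKM (log axis) of each gene in the control (circles), NELL2 overexpression (squares) and Fn1 knockdown (triangles) libraries, 1 library each, with no error bar since there are no replicates. For most genes the symbols lie close together. Asns is highest in the Fn1 knockdown library (69.3 FPKM) and Ppp1r15a is highest in the control (19.2 FPKM).

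Differences are given as log2 ratios of FPKM + 1. A gene was called when this ratio reached 1 in size, a 2-fold difference on that scale, and the gene was at 1 FPKM or more in either library. None of the 10 genes was called in any comparison. The background share of called genes was 0.652% of 12572 genes with NELL2 overexpression and 1.23% of 12574 genes after Fn1 knockdown, each against the control, and 1.29% of 12596 genes between Fn1 knockdown and NELL2 overexpression. At 1.5-fold, 1 of the 10 genes, Ppp1r15a, was lower in each comparison with the control, and none was higher. Among all genes, 1.05% were lower and 1.54% higher at 1.5-fold with NELL2 overexpression, and 3.32% lower and 2.92% higher after Fn1 knockdown. Between the manipulated libraries no member reached 1.5-fold, where 3.56% of all genes were lower and 2.84% higher after Fn1 knockdown. The median log2 ratio of the 10 genes was -0.0093 with NELL2 overexpression (5 higher, 5 lower), 0.014 after Fn1 knockdown (7 higher, 3 lower) and -0.0015 between the manipulated libraries, beside medians over all expressed genes of 0.0071, -0.0030 and -0.011.

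**Figure D2:**
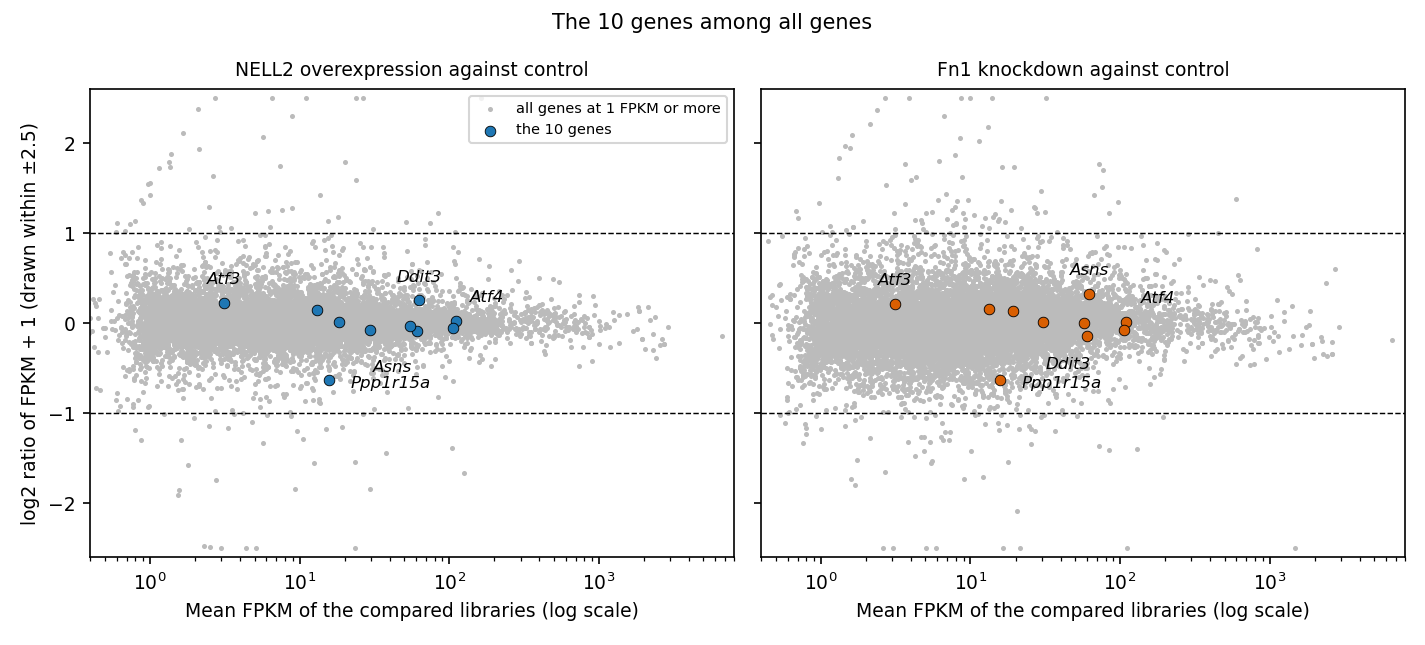
Log2 ratio of FPKM + 1 against mean FPKM of the compared libraries (log axis) for every gene at 1 FPKM or more (grey) and for the 10 genes (coloured), with dashed lines at 2-fold and points beyond ±2.5 drawn at that limit. The 10 genes lie inside the 2-fold lines in both panels, with Ppp1r15a lowest at a log2 ratio of -0.63 in each.

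The transcription factors were considered first. Atf4 (ENSMUSG00000042406.8, GRCm38 chr15:80255184-80257541, plus strand) was at 109.8, 111.7 and 110.8 FPKM. The 3 libraries were thus within 1.02-fold of each other, and 98.7% of the 6524 genes that reached 10 FPKM varied more over the libraries than Atf4 did. Its log2 ratios were 0.024 and 0.012. ATF4 protein, the regulated step of the pathway, was not measured here.

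Ddit3 (ENSMUSG00000025408.15, chr10:127290774-127296288, plus strand), which encodes CHOP, the partner of ATF4 in prolonged stress, was at 57.7, 69.0 and 57.9 FPKM. The NELL2 overexpression library was alone in being higher, with log2 ratios of 0.25 for NELL2 overexpression and 0.0047 for Fn1 knockdown. Of the 6340 genes at 10 FPKM or more, 6.62% had a ratio at least as high with NELL2 overexpression. The approximate 95% counting interval of the FPKM ratio, from about 797 and 980 estimated fragments, was 0.12 to 0.39 on the log2 scale. It covers counting error only and says nothing of the spread between cultures, which was not measured. The annotation holds a further entry named Ddit3, whose 105 exonic bases all lie in exons of the gene, and 81 exonic bases overlap Mars and Gm4189 on the opposite strand. Strand use in counting is not stated, so reads there cannot be assigned. Mars was at 29.4, 31.4 and 36.3 FPKM in the 3 libraries.

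Atf3 (ENSMUSG00000026628.13, chr1:191170296-191218039, minus strand), a stress-induced factor of the same family that ATF4 activates, was at 2.81, 3.45 and 3.43 FPKM. Both manipulated libraries lay above the control, which the ratios share, by log2 ratios of 0.22. These values rest on about 126, 159 and 161 estimated fragments, and the counting intervals, -0.054 to 0.64 and -0.065 to 0.63, include no change.

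Among the feedback genes, 1 departed from the control past 1.5-fold. Ppp1r15a (ENSMUSG00000040435.12, chr7:45522916-45526268, minus strand) encodes GADD34, the stress-induced subunit that directs protein phosphatase 1 to eIF2α and so restores translation. It was at 19.2, 12.1 and 12.1 FPKM. The control library stood alone at the higher level, and the manipulated libraries held 62.7% and 62.8% of it. The log2 ratios were -0.63 and -0.63, and between the manipulated libraries the ratio was 0.0017. Among genes at 10 FPKM or more, 0.662% were as low or lower with NELL2 overexpression and 2.29% after Fn1 knockdown. The counting intervals, from about 1032, 667 and 682 estimated fragments, were -0.82 to -0.53 and -0.81 to -0.53. Both comparisons use the same control library, so a lower level in each manipulated culture and a higher level in this 1 control culture cannot be told apart. With a pseudocount of 5 FPKM the ratios were -0.51 and -0.51, no longer past 1.5-fold. Only 12 exonic bases overlap another gene, Tulp2, which was under 0.1 FPKM. Ppp1r15b, the subunit that performs the same task without stress, was at 24.3, 25.4 and 28.5 FPKM, with log2 ratios of 0.062 and 0.22.

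The promoter of Ppp1r15a is shown because this gene departed most. The 250 bases before the RefSeq start (GRCm38.p6 chr7:45526269-45526518, minus strand) hold 1 full cyclic AMP response element, TGACGTCA, in capitals, beginning 12 bases before the start.
Ppp1r15a: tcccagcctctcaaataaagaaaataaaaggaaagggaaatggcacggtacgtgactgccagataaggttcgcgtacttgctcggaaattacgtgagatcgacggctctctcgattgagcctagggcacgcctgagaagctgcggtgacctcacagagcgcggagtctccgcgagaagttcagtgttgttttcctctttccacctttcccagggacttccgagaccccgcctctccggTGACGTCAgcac

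The other feedback genes stayed within 1.5-fold. Trib3 (ENSMUSG00000032715.9, chr2:152337422-152344032, minus strand), a pseudokinase gene activated by ATF4 and CHOP whose product restrains both, was at 12.4, 13.9 and 14.0 FPKM. The control, which the ratios share, was the lowest library, by log2 ratios of 0.15 and 0.16. Chac1 (ENSMUSG00000027313.3, chr2:119351229-119354381, plus strand), a glutathione-degrading enzyme gene that responds strongly to ATF4 in many cells, was at 18.4, 18.6 and 20.3 FPKM, with log2 ratios of 0.013 and 0.13. Sesn2 (ENSMUSG00000028893.8, chr4:132492032-132510501, minus strand), which encodes a leucine sensor that restrains mTORC1, was at 30.1, 28.6 and 30.5 FPKM, with log2 ratios of -0.075 and 0.015. The Trib3 counting interval after Fn1 knockdown began just above no change (0.012 to 0.34), and those of Chac1 and Sesn2 against the control included it.

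The enzymes of amino acid synthesis differed from each other after Fn1 knockdown. Asns (ENSMUSG00000029752.12, chr6:7675169-7693254, minus strand), the asparagine synthetase gene, was at 55.1, 53.9 and 69.3 FPKM. The Fn1 knockdown library was alone in being higher, at 126% of the control and 129% of the NELL2 overexpression library. The log2 ratio to the control was 0.33, with a counting interval of 0.22 to 0.44, and that to the NELL2 overexpression library, which does not involve the control, was 0.36. Of the 6421 genes at 10 FPKM or more, 10.2% were as high or higher after Fn1 knockdown. With NELL2 overexpression the Asns ratio was -0.031.

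Asns carries the best known C/EBP-ATF response element, and its 250 bases before the RefSeq start (GRCm38.p6 chr6:7693210-7693459, minus strand) are shown with the match to the core of that element, TGATGNAA, in capitals, beginning 23 bases before the start.
Asns: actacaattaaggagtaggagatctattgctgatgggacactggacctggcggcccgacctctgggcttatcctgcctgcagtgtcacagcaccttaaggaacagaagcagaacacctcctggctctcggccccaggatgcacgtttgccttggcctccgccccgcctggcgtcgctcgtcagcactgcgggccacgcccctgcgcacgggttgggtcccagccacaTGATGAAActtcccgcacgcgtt

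The serine synthesis genes Phgdh and Psat1 did not share the higher level of Asns. Phgdh (ENSMUSG00000053398.11, chr3:98313170-98339990, minus strand), for the entry enzyme that draws on a glycolytic intermediate, was at 108, 104 and 103 FPKM, with log2 ratios of -0.056 and -0.072. Psat1 (ENSMUSG00000024640.9, chr19:15904678-15947337, minus strand), for the transaminase that follows it, was at 62.9, 59.4 and 56.9 FPKM, with log2 ratios of -0.081 and -0.14. The control was the highest library for Phgdh and for Psat1. The counting interval of Psat1 after Fn1 knockdown was -0.22 to -0.074, and 77.0% of genes at 10 FPKM or more had a ratio at least as high. Psph, the phosphatase gene that completes serine synthesis, was at 18.8, 19.1 and 32.1 FPKM.

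**Figure D3:**
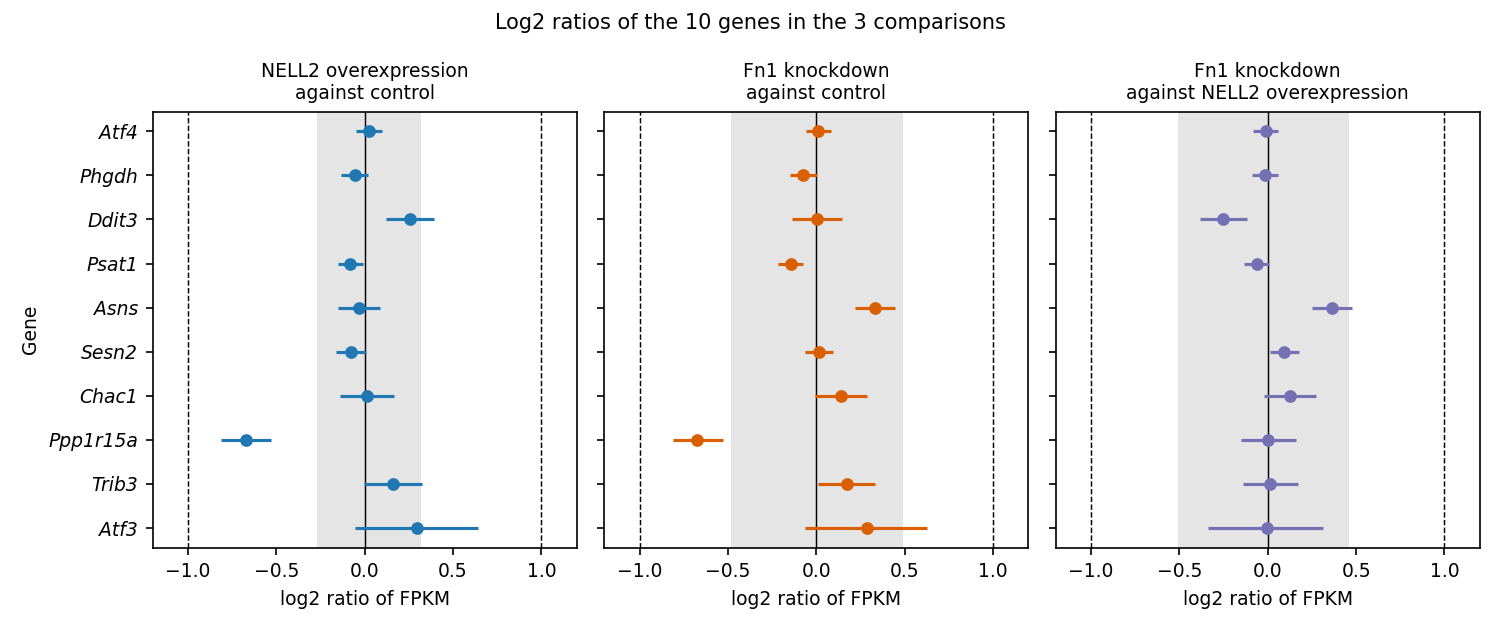
Log2 ratio of FPKM (points, without a pseudocount) of each gene in the 3 comparisons, with approximate 95% counting intervals (lines), dashed lines at 2-fold, and a grey band for the central 90% of genes at 10 FPKM or more. Ppp1r15a lies below the band in both comparisons with the control and at 0.0019 between the manipulated libraries. Asns is higher by 0.33 and 0.36 in the comparisons that hold the Fn1 knockdown library, inside the band in each.

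Promoters of the 10 genes were searched on both strands, from 250 bases before to 50 after the RefSeq start. The core of the C/EBP-ATF response element, TGATGNAA, was found in 4 of the 10 and in 4.51% of 27025 genes with a RefSeq promoter. The cyclic AMP response element, TGACGTCA, was found in 1 of the 10 and in 2.03% of all. The other 3 genes with the C/EBP-ATF core are shown in 30 bases, 5′ to 3′ along the gene, with the match in capitals; in each of them it lies on the opposite strand. The windows are at chr1:191183425-191183454 for Atf3, chr2:119351038-119351067 for Chac1 and chr2:152344028-152344057 for Trib3, on GRCm38.p6. The match begins 110 and 193 bases before the start of Atf3 and Chac1, and 14 bases after that of Trib3.
Atf3: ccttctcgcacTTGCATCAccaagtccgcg
Chac1: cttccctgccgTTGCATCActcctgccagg
Trib3: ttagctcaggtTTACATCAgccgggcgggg

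These 4 genes, Asns, Atf3, Chac1 and Trib3, were the 4 members with the highest ratios after Fn1 knockdown, from 0.13 to 0.33, whereas the 6 without the core ranged from -0.63 to 0.015. This order was noticed after the values were seen. The other comparisons did not have this order. With NELL2 overexpression the same 4 genes ranged from -0.031 to 0.22 and the 6 from -0.63 to 0.25, with Ddit3 the highest. Between Fn1 knockdown and NELL2 overexpression the 4 ranged from -0.0048 to 0.36 and the 6 from -0.25 to 0.090, with Sesn2 at 0.090 above Trib3 at 0.012 and Atf3 at -0.0048. A match is a description of the letters in this window and not evidence of a bound site.

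Upstream of ATF4, the kinases of eIF2α were all expressed and none reached 1.5-fold. Eif2ak4 (GCN2, the sensor of uncharged tRNA) was at 8.58 FPKM in the control and lower in both other libraries, at 7.10 and 7.40 FPKM. These differences share the 1 control library. Eif2ak3 (PERK, the sensor of the endoplasmic reticulum) was at 11.5, 11.7 and 13.5 FPKM. Eif2ak2 (PKR, which binds double-stranded RNA and is itself induced by interferon) was at 56.7, 63.8 and 50.5 FPKM, so its direction differed between the libraries, with log2 ratios of 0.17 and -0.17. Eif2ak1 (HRI, the heme sensor) was at 13.1, 14.0 and 13.7 FPKM, with 659 exonic bases that overlap Aimp2 and Ankrd61 on the opposite strand. Of 10 genes for eIF2, its exchange factor eIF2B and the eIF2 phosphatase, 7 were higher and 3 lower in either comparison, with medians of 0.025 and 0.16. Eif2b1 had the largest ratio of them, from 18.0 FPKM in the control to 23.6 FPKM after Fn1 knockdown (0.38).

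The wider pathway was described by 9 lists with 88 genes, of which 84 reached 1 FPKM in some library. With NELL2 overexpression, 0 of the 84 passed 1.5-fold in either direction, beside 1.54% of all genes higher and 1.05% lower. Of the 84, 52 were higher and 32 lower, and the median log2 ratio was 0.027. This is 61.9% higher, beside 52.3% of all expressed genes. After Fn1 knockdown, 58 were higher and 26 lower, with a median of 0.12. This is 69.0% higher, beside 49.5% of all expressed genes. Only Psph and Slc7a11 passed 1.5-fold, both higher, which is 2.38% of the 84 and close to the background of 2.92%. Slc7a11 alone was called at 2-fold, where the background was 1.23% of all genes in either direction. Against the NELL2 overexpression library the median was 0.12 as well, with 60 of 84 genes (71.4%) higher after Fn1 knockdown, beside 48.0% of all expressed genes. This comparison and the one with the control share the 1 Fn1 knockdown library. Ddit4l joined the other 2 past 1.5-fold, which makes 3.57% of the 84 and is close to the background of 2.84%.

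Slc7a11 encodes the cystine importer and is a known target of NRF2 as well as of ATF4. It was at 2.27, 2.75 and 6.24 FPKM. The Fn1 knockdown library was alone in being high, with a log2 ratio of 1.15 to the control. Nfe2l2, the gene for NRF2, was at 65.0, 70.4 and 77.6 FPKM in the same order, and its part in the level of Slc7a11 was not tested. Psph, whose values were given with Phgdh and Psat1, had a log2 ratio of 0.74 after Fn1 knockdown. Of its exonic bases, 452 overlap Cct6a on the opposite strand, and Cct6a was at 198, 187 and 187 FPKM. Since strand use is not stated, reads of these genes cannot be told apart there.

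The list medians after Fn1 knockdown were of different sizes, and no difference between lists was tested. The median was 0.29 for the enzymes of proline, alanine and sulfur amino acids, with 7 of 8 genes higher and Pycr1 going from 6.74 to 9.52 FPKM. For the death-related and secreted targets of CHOP and ATF4 it was 0.27, with 9 of 10 higher and Vldlr, a lipoprotein receptor gene, going from 4.87 to 7.57 FPKM. Amino acid transporters had a median of 0.15 (7 of 10 higher) and aminoacyl-tRNA synthetases 0.11 (14 of 20 higher), the latter led by Mars1, listed as Mars, with a log2 ratio of 0.30. Serine, glycine and folate enzymes were at 0.050 (5 of 8 higher), the bZIP partners and cofactors at 0.074 (4 of 7 higher, with Jdp2 at -0.40), and the sestrins and other brakes on mTORC1 at -0.023 (3 of 7 higher, with Ddit4l at 0.53). With NELL2 overexpression the medians of these 7 lists lay between -0.046 and 0.056.

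**Figure D4:**
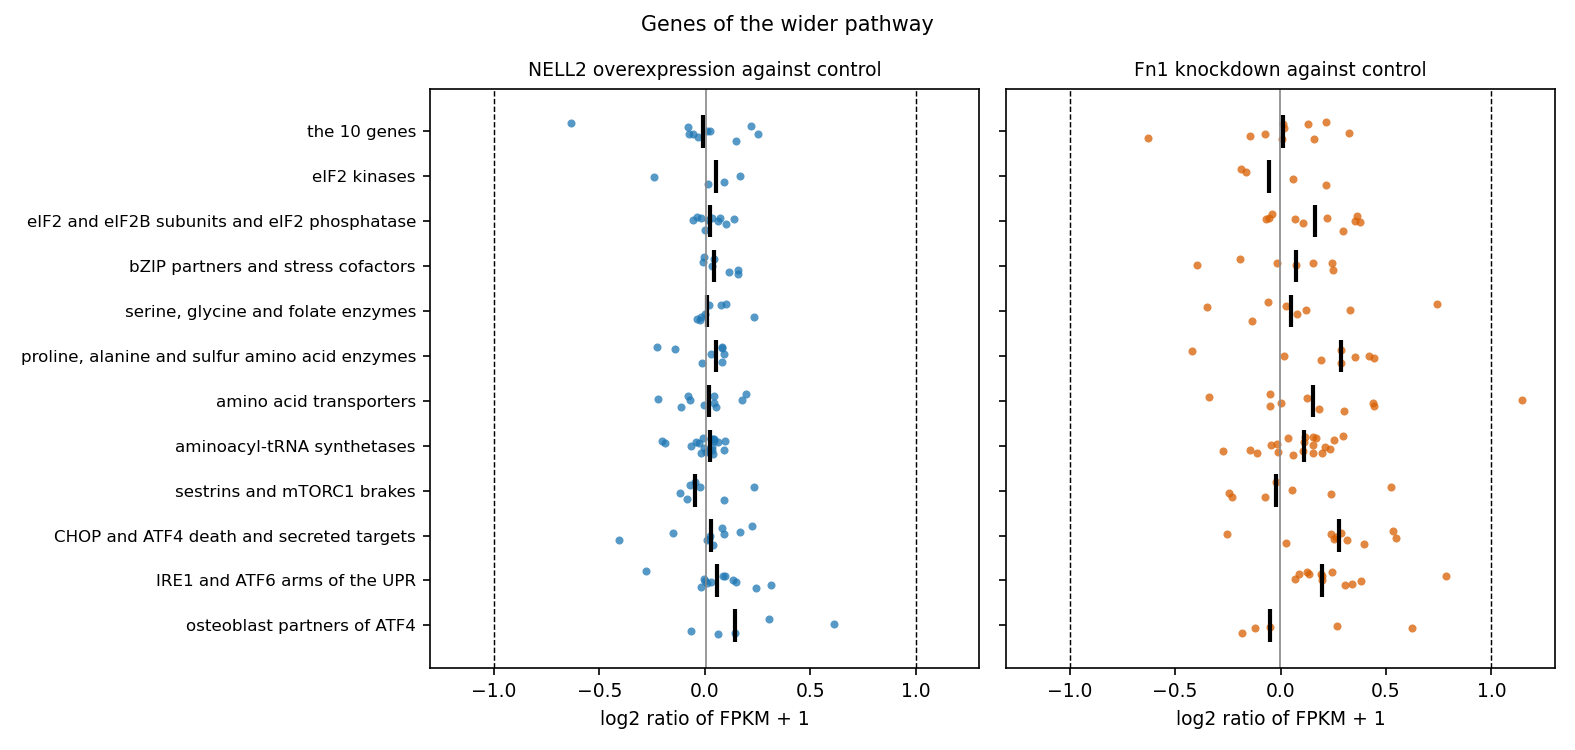
Log2 ratio of FPKM + 1 of each gene at 1 FPKM or more (points) by list, with list medians (black bars), the median of all expressed genes (grey line) and dashed lines at 2-fold. List medians stay near 0 with NELL2 overexpression, while after Fn1 knockdown several lists lie to the right, such as the enzymes of proline, alanine and sulfur amino acids at 0.29.

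Of the 10 genes and the 84 pathway genes at 1 FPKM, 74 had a promoter in the same RefSeq table. After Fn1 knockdown, the 19 of them with the TGATGNAA core had a median log2 ratio of 0.21 with 17 higher, and the 55 without it a median of 0.019 with 32 higher. The other 20 genes, whose promoters were not searched, had a median of 0.21 with 16 higher, as high as the genes with the core, so the difference between the searched groups cannot be read as one of the pathway as a whole. With NELL2 overexpression the medians were 0.040, 0.024 and -0.0055 in the same order. Over all 236 expressed genes with the core the median after Fn1 knockdown was 0.0076, beside -0.0050 in 8881 genes without it. This division of the genes was made after their values were seen and was not tested. The 19 include the 4 members with the core and the 55 the 6 without it, so the order noticed among the members enters these medians.

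**Figure D5:**
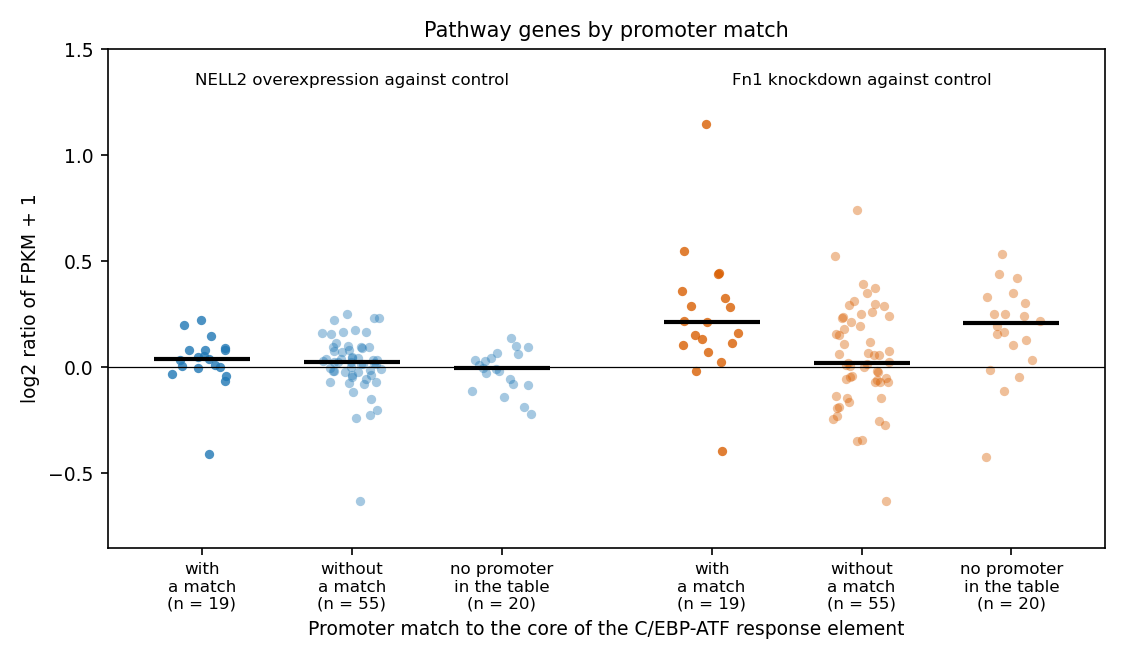
Log2 ratio of FPKM + 1 of the pathway genes with (n = 19) and without (n = 55) a match to TGATGNAA in the promoter window and of those with no promoter in the table (n = 20), by comparison, with medians as bars. The 10 genes are included. After Fn1 knockdown the medians are 0.21, 0.019 and 0.21, so the unsearched genes lie as high as those with a match.

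Genes listed for the IRE1 and ATF6 arms of the unfolded protein response were set beside the genes above. ATF4 protein was not measured, and whether ATF4 acts on the listed genes was not tested. After Fn1 knockdown all 12 genes of the IRE1 and ATF6 arms were higher, with a median of 0.20. With NELL2 overexpression 9 of 12 were higher, with a median of 0.060. Of all expressed genes, 49.5% were higher after Fn1 knockdown and 52.3% with NELL2 overexpression. Hspa5, for the chaperone BiP, was at 148, 162 and 255 FPKM, with a log2 ratio of 0.79 after Fn1 knockdown. It alone of the 12 passed 1.5-fold against the control, where 2.92% of all genes were higher. The other 11 genes lay between 0.067 and 0.38, with Herpud1, a gene of endoplasmic reticulum-associated degradation, the highest of them. Against the NELL2 overexpression library, Hspa5 at 0.65 and Herpud1 at 0.66 were both past 1.5-fold, where 2.84% of all genes were higher. This comparison uses the same Fn1 knockdown library. With NELL2 overexpression, Herpud1 was below the control, at a log2 ratio of -0.28. Atf4 and Ddit3 had log2 ratios of 0.012 and 0.0047 after Fn1 knockdown against the control, and of -0.012 and -0.25 against the NELL2 overexpression library.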

How the data were processed

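The deposited values are FPKM per gene, computed by the authors from paired reads of polyadenylated RNA. Per the methods and labels, reads were mapped with HISAT2 and the submitters' processing notes name GRCm38. The program behind FPKM, the annotation and the use of strand are not given in the sources used here. No column was left unused.

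Genes were matched by symbol, 3 of 128 list genes through RefSeq synonyms. Positions are from GENCODE M21 (GRCm38) and promoters from RefSeq (GRCm38.p6). Log2 ratios used a pseudocount of 1 FPKM. Depth was read from the most frequent value of FPKM times length, among low values, in genes with 1 transcript of 600 bases or more. Only 24.9% to 25.1% of low values were within 0.02 of a whole fragment, so fragment numbers, taken with the median coding transcript length, and the Clopper-Pearson intervals from them are approximate and cover counting error only. Whole reads were not recovered, and no count model was used.

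Members, lists and motifs were chosen with earlier results of these data known. Genes named beyond the members were the eIF2α kinases and, per list, up to 6 genes past 1.5-fold in either comparison with the control, or else the gene with the largest ratio. A gene that this rule also names is not reported here. Others (Nfe2l2, Ppp1r15b, Herpud1, Runx2, Bglap, Tnfsf11 and overlapping genes) were chosen after their values were seen. Scripts were tested on simulated data (Python 3.11.15, pandas 2.3.3, scipy 1.17.1).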

Additional observations from a re-analysis of the deposited data

How the results depend on the processing

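The number of members called, 0 in each comparison, stayed 0 with pseudocounts of 0.1 and 5 FPKM, a minimum of 5 FPKM, no minimum, and median-of-ratios scaling (factors of 0.999, 1.01 and 0.997). With the 1.5-fold threshold it was 1 (Ppp1r15a) with NELL2 overexpression and 1 after Fn1 knockdown, each against the control. No member's log2 ratio shifted by more than 0.13 in these settings. Without Ppp1r15a, a setting chosen after seeing the data, the member medians were 0.013, 0.015 and -0.0048. Of 165 list medians under alternative settings, 4 changed sign, all near 0 in the main setting: the osteoblast partners after Fn1 knockdown (0.11 with 5 FPKM or more, 0.096 with no minimum), the sestrins and mTORC1 brakes after Fn1 knockdown (0.056 with 5 FPKM or more) and the serine enzymes with NELL2 overexpression (-0.0061 with 5 FPKM or more). The number of counting intervals without 0 stayed within 1.5 times with the longest transcript in place of the median coding length. No paired analysis was possible because there was a single library for every group, and leaving out a library would remove a group. Depth weighs most on Atf3, with 126 to 161 estimated fragments.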

Other observations

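Genes that work with ATF4 in osteoblasts were also read. Runx2, the lineage factor of osteoblasts, was at 10.8, 11.3 and 10.4 FPKM in the order control, NELL2 overexpression, Fn1 knockdown, and Bglap, the osteocalcin gene that ATF4 and RUNX2 activate together, stayed under 1 FPKM in all 3. Rps6ka3, which encodes RSK2, the kinase that phosphorylates ATF4 in osteoblasts, was at 9.59, 15.2 and 11.8 FPKM. Its log2 ratio of 0.61 with NELL2 overexpression was past 1.5-fold, and that of 0.27 after Fn1 knockdown was not. Tnfsf11, for the osteoclast factor RANKL and a known ATF4 target, was at 4.66, 5.26 and 3.99 FPKM. The 5 of the 6 listed genes that reached 1 FPKM had medians of 0.15 and -0.050.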
